A study of Mus musculus with 6 samples.

Results

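The Eph receptors examined here were the 9 genes Epha1, Epha2, Epha3, Epha4, Epha8, Ephb2, Ephb3, Ephb4, and Ephb6. They were chosen by name, with earlier results of these data known, from the 14 Eph receptor genes of the mouse annotation and from 53465 genes in the table. Of the 9, 5 belong to the A class and 4 to the B class. RNA was sequenced from 3 libraries of parental (P) 4T1 cells and 3 of axitinib-resistant (AxR) 4T1 cells. 4T1 is a mouse mammary carcinoma line. AxR cells were grown out of metastases (lung or lymph node) that arose after tumor removal in 4T1-bearing mice that received axitinib, a VEGF receptor inhibitor, at 100 mg/kg/day, and were then kept in 0.5 μM axitinib for more than 2 months. The sample labels give a treatment for AxR samples only, and the study describes the P cells as treated with vehicle, although the growth protocol entered for all 6 samples names 0.5 μM axitinib. Each line was sequenced as 1 cell population, so passage through the mouse, drug exposure and culture history cannot be told apart in this comparison. No source used here says whether the replicates were separate cultures, so the p-values measure only the spread between these libraries. In such bulk RNA, fewer cells that express a gene and less RNA per cell cannot be told apart.

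Eph receptors are the largest family of receptor tyrosine kinases. They bind ephrins, which are themselves held on the surface of neighbouring cells, so a signal needs cell contact and can run into both cells. EphA receptors mainly bind the lipid-anchored ephrin-A ligands and EphB receptors mainly bind the transmembrane ephrin-B ligands, with EphA4 known to bind both kinds. In epithelia they are known for keeping cell populations apart and for regulating adhesion and migration. EphA2 in particular is abundant in many carcinomas, where it can also act without ligand.

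In both lines the Eph transcript pool was mostly Epha2, and in AxR cells that pool was smaller and its make-up differed. The fall of the pool was smaller than the fall of Epha2 alone. Epha2, Epha4, Epha8, and Ephb2 fell in AxR cells relative to P cells, Epha1, Ephb3, and Ephb6 rose, and Ephb4 did not pass the test. Class A held 86.7% ± 0.822 (SD, n = 3) of Eph transcripts in P cells and 82.4% ± 1.97 (SD, n = 3) in AxR cells. Neither class moved as a block, since each had members called in both directions. Of the 8 receptors tested, 3 rose and 4 fell in the quasi-likelihood test of edgeR (Benjamini-Hochberg adjusted p below 0.05 over 13550 genes). Of all genes tested, 32.8% were called higher and 30.8% lower, which is 63.5% in either direction. With 7 of 8 called, the median log2 fold change of the receptors was -0.21, and that of all genes tested was 0.0058. For each of the 7 called, the values of the lines were fully separated. Such separation was seen for 68.3% of all genes tested, with AxR above P in 35.1% and below it in 33.2%. With 3 libraries a line, the smallest two-sided p that an exact permutation test can give is 0.1.

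The libraries held between 15495260 and 17294525 estimated counts. Counts of replicates differed beyond sampling noise in every pair (chi-square over its degrees of freedom 4.75 to 17.9, most between AxR replicates 1 and 3), and all 6 libraries were kept. The labelled cell type was checked against 12 epithelial markers, of which 11 were tested and Krt5 was at 0 in every library. In AxR cells 7 were higher and 4 lower (63.6% and 36.4% of those tested), beside 32.8% and 30.8% of all genes tested. Those lower were Cldn7 (log2 fold change -3.43), Krt19 (-1.31), Cldn3 (-0.94), and Cldn4 (-0.17). The summed level of the 12 markers was 3393 to 3757 TPM (transcript level per exon length, scaled to a fixed total) in P and 4406 to 4649 TPM in AxR libraries. Most of this sum was Krt18 (1578 TPM in P and 1939 TPM in AxR cells) and Krt8 (537 and 824 TPM). Of 8 endothelial markers none was tested, and their summed level was 0.334 to 0.428 TPM in P and 0.0365 to 0.158 TPM in AxR libraries, with Kdr, Emcn, and Cldn5 at 0. The 8 leukocyte markers, none tested, summed to 0.0117 to 0.799 TPM in P and 0.297 to 0.457 TPM in AxR libraries, with Cd3e, Tyrobp, Fcer1g, and Adgre1 among those at 0. The 8 fibroblast markers summed to 7.56 to 8.35 TPM in P and 3.26 to 3.86 TPM in AxR libraries, almost all from Pdgfra, with Col3a1, Lum, and Thy1 at 0. The 7 lung epithelial markers summed to 1.03 to 1.63 TPM in P and 5.02 to 5.53 TPM in AxR libraries, in AxR cells mostly from Foxj1, a ciliated cell factor (log2 fold change 2.72), with Scgb1a1 and Nkx2-1 at 0. The part of these cell types in the receptor values was not tested.

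The genes lie on 5 chromosomes of GRCm38, and several are close to each other. Epha2 (ENSMUSG00000006445.3, chromosome 4 from 141301240 to 141329384, plus strand), Epha8 (ENSMUSG00000028661.8, chromosome 4 from 136929419 to 136956816, minus strand) and Ephb2 (ENSMUSG00000028664.14, chromosome 4 from 136647539 to 136835988, minus strand) share chromosome 4. Ephb6 (ENSMUSG00000029869.7, chromosome 6 from 41605482 to 41620509, plus strand) and Epha1 (ENSMUSG00000029859.6, chromosome 6 from 42358487 to 42373268, minus strand) are 738 kb apart. Ephb3 (ENSMUSG00000005958.15, from 21204755 to 21223305, plus strand) and Epha3 (ENSMUSG00000052504.7, from 63543534 to 63864175, minus strand) are both on chromosome 16. Epha4 (ENSMUSG00000026235.14, from 77367185 to 77515088, minus strand) is on chromosome 1 and Ephb4 (ENSMUSG00000029710.15, from 137350109 to 137378669, plus strand) on chromosome 5.

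The 250 bases before the RefSeq start are shown for 4 receptors, Epha1 and Ephb6 because they had the highest fold changes, Epha2 as the most abundant receptor, and Epha4 because it had the lowest fold change. They are written 5′ to 3′ on the strand of the gene (RefSeq, GRCm38.p6). Capitals mark the GC box GGGCGG on either strand, a promoter element bound by SP family factors.
Epha1, chr6:42373269-42373518, minus strand: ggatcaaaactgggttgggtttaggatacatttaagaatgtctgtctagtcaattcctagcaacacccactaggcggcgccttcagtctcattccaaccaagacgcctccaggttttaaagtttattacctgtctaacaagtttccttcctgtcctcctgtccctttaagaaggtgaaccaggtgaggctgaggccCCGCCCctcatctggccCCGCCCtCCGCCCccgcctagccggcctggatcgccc
Ephb6, chr6:41605261-41605510, plus strand: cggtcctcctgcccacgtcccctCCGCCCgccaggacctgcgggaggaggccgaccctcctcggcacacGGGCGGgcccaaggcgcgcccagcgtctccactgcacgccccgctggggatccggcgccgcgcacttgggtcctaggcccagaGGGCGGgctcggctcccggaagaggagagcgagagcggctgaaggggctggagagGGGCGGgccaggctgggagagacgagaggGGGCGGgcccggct
Epha2, chr4:141300971-141301220, plus strand: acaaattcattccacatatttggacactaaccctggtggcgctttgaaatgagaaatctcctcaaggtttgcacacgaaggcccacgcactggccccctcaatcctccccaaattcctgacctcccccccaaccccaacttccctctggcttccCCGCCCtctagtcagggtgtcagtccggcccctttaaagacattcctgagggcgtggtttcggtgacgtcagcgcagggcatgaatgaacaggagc
Epha4, chr1:77515089-77515338, minus strand: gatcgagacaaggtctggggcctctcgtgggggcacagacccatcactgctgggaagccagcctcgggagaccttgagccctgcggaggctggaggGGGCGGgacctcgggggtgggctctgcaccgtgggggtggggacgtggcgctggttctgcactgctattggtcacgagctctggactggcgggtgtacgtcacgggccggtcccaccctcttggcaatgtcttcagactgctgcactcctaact
The GC box occurred 3 times before Epha1, 5 times before Ephb6, and once before Epha2 and before Epha4. It was present in 7 of the 9 receptor windows, with none before Epha3 and Ephb2, and in 32.74% of the 32851 windows of this length in the RefSeq table. CpG dinucleotides numbered 9 before Epha1 and Epha2, 14 before Epha4, 27 before Ephb6, and 46 before Epha8, where the median of all windows was 6. The AP-1 motif TGANTCA and the TATA motif TATAAA, both searched on either strand, were in none of the 9 windows and in 6.75% and 12.37% of all windows. The E-box CACGTG was in 1 of the 9, that of Epha8, and in 6.02% of all. These matches describe letters only, and receptors that rose and receptors that fell both had GC boxes.

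Levels of different receptors were compared per exon length, as TPM. In P cells Epha2 had 399 ± 26.0 TPM (SD, n = 3). Ephb4 followed with 46.0 ± 3.03 TPM and Epha1 with 39.1 ± 3.27 TPM (SD, n = 3 each), and the libraries of these 2 receptors overlapped. Ephb2 came next with 14.6 ± 1.40 TPM (SD, n = 3), apart from its neighbours in the order. Epha4, Ephb6, and Epha8 lay between 4.67 and 5.09 TPM with libraries that overlapped in this order, and Ephb3 was the lowest receptor detected, with 2.88 ± 0.242 TPM (SD, n = 3). In AxR cells the order was Epha2 (261 ± 36.7 TPM), Epha1 (70.0 ± 5.44 TPM), Ephb4 (46.9 ± 1.49 TPM), Ephb6 (10.4 ± 0.699 TPM), Ephb2 (9.80 ± 1.04 TPM), Ephb3 (4.24 ± 0.206 TPM), Epha8 (2.56 ± 0.377 TPM) and Epha4 (2.15 ± 0.104 TPM; SD, n = 3 each). Epha1 thus stood above Ephb4 in AxR cells with no overlap of their libraries, where in P cells their libraries overlapped. Ephb6 and Ephb2 overlapped, as did Epha8 and Epha4. Ephb3 was above Epha8 and Epha4 in AxR cells and below both in P cells.

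**Figure D1:**
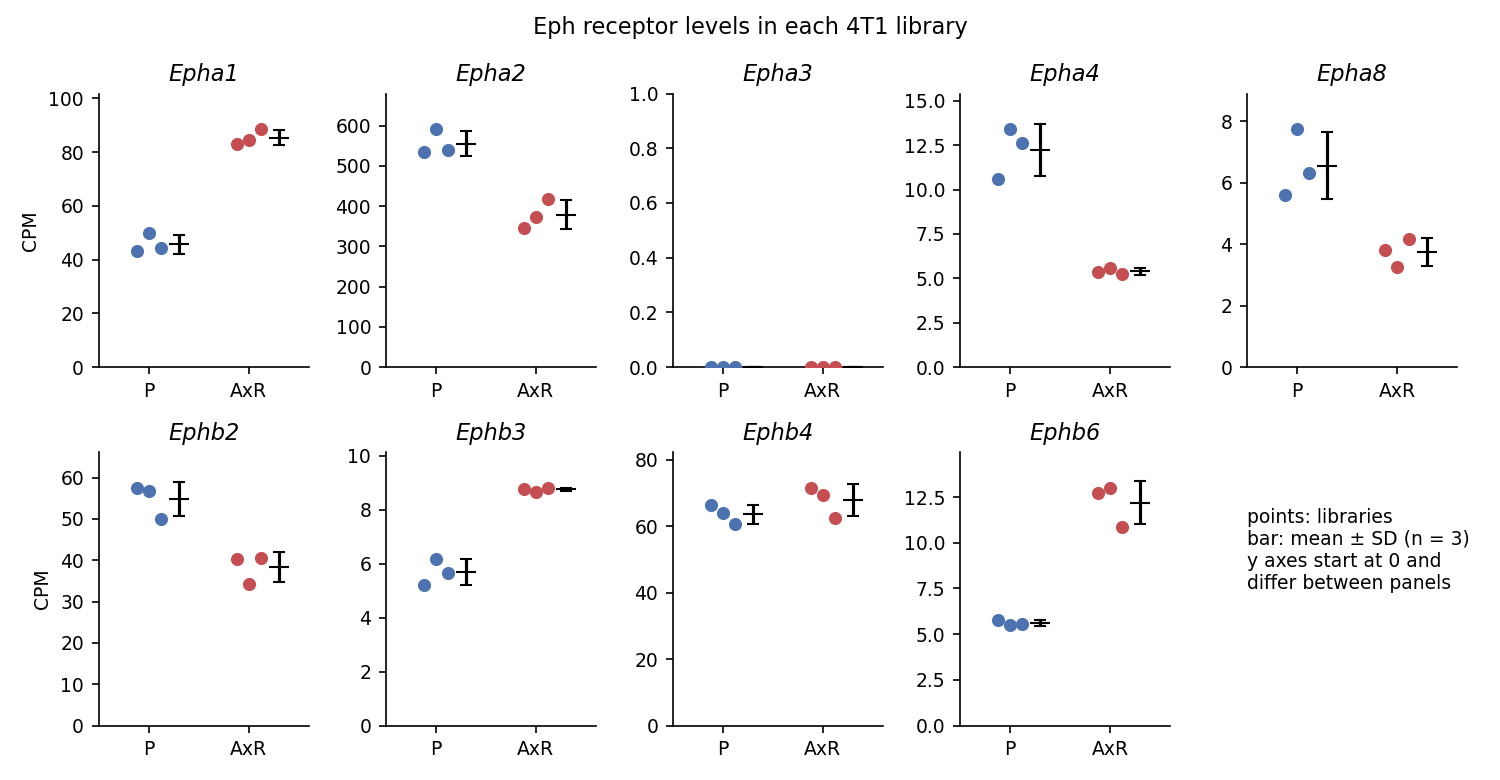
Level of each Eph receptor in CPM (counts scaled to library size, y axis from 0) in the 3 P and 3 AxR libraries (points), with the mean and SD of each line beside them. Epha2, Epha4, Epha8, and Ephb2 have every AxR library below every P library, Epha1, Ephb3, and Ephb6 every AxR library above, Ephb4 overlaps, and Epha3 is at 0 throughout.

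Epha2 was the most abundant Eph receptor in every library. Scaled by normalized library size (CPM), its levels in P replicates 1 to 3 were 534, 591, and 540 CPM, and in AxR replicates 1 to 3 they were 345, 372, and 417 CPM. All AxR libraries lay below all P libraries, with the AxR values the more spread. Its log2 fold change was -0.55, with a standard error of 0.065 and an edgeR adjusted p = 4.66e-06. Among 58 receptor tyrosine kinase genes ranked by TPM, Epha2 was second to Axl in both lines.

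Epha4 showed the largest fall of the family by fold change, though Epha2 fell more in TPM. This receptor binds ephrins of both classes and is best known from axon guidance. It had 10.6, 13.4, and 12.7 CPM in the P libraries and 5.33, 5.61, and 5.23 CPM in the AxR libraries. The AxR values were close together, and all P values lay well above them. A log2 fold change of -1.18 was fitted, with a standard error of 0.124 (edgeR, adjusted p = 8.25e-07).

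Epha8, a receptor described mainly in the nervous system, was among the less abundant receptors. It had 5.59, 7.74, and 6.33 CPM in the P libraries and 3.81, 3.25, and 4.15 CPM in the AxR libraries, which corresponded to between 51 and 134 estimated counts. The lines did not overlap. This gave a log2 fold change of -0.81 with the largest standard error of the family, 0.162 (edgeR, adjusted p = 0.00047).

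Epha1, the receptor after which the family was named and an epithelial kinase, moved against the other 3 class A receptors tested. It had 43.1, 49.8, and 44.5 CPM in the P libraries and 83.0, 84.5, and 88.5 CPM in the AxR libraries. Every AxR library was far above every P library. Epha1 had a log2 fold change of 0.90 with a standard error of 0.064, and the smallest adjusted p of the family (edgeR, 1.12e-08). The 3′ end of Epha1 overlaps that of Zyx, which encodes the focal adhesion protein zyxin, on the opposite strand. The estimated counts of Epha1 were not whole in any of the 6 libraries, while those of the other 8 receptors were whole in all 6. The sum of Epha1 and Zyx was within 0.02 of a whole number in each library, as it would be where RSEM divides reads between the pair. Zyx had 242 ± 10.4 CPM in P cells and 241 ± 20.8 CPM in AxR cells (SD, n = 3 each), and was not called (log2 fold change -0.0057, adjusted p = 0.941 from edgeR). The sum of both genes was 277 to 303 CPM in P and 309 to 354 CPM in AxR libraries, again without overlap.

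Epha3 had no count in any library of either line. A count of 0 allows at most 0.171 to 0.196 CPM, depending on the library, at a floor of 3 counts that covers counting error only. The other 5 mouse Eph receptors, left out of the 9 chosen with earlier results known, were likewise at the floor. Epha5, Epha6, and Epha7 had no count, Epha10, which lacks kinase activity, had at most 3 counts, and Ephb1 had at most 1.

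Ephb4, best known as the receptor of ephrin-B2 in veins, was the main class B receptor and the one member tested that was not called. Its P libraries had 66.3, 63.9, and 60.6 CPM and its AxR libraries 71.6, 69.4, and 62.4 CPM. The ranges overlapped. Its log2 fold change of 0.09 had a 95% confidence interval from -0.05 to 0.23 (edgeR, adjusted p = 0.227). Leaving out AxR replicate 3, its lowest AxR value, gave a log2 fold change of 0.15 and an edgeR adjusted p of 0.0441, the smallest over the alternatives, which reached up to 0.516.

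Ephb6 showed the largest rise of the family by fold change, though Epha1 rose more in TPM. Its kinase domain is catalytically inactive, and it signals through partner receptors. It had 5.77, 5.49, and 5.54 CPM in the P libraries and 12.7, 13.0, and 10.9 CPM in the AxR libraries. The P values were nearly alike and all AxR values were well above them. The fitted log2 fold change was 1.12, with a standard error of 0.117 (edgeR, adjusted p = 8.20e-07).

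Ephb2 and Ephb3, which position cells along the intestinal crypt, moved in opposite directions. Ephb2 had 57.6, 56.6, and 50.01 CPM in the P libraries and 40.3, 34.3, and 40.6 CPM in the AxR libraries. Ephb3, a much rarer transcript, had 5.23, 6.18, and 5.67 CPM in the P libraries and 8.76, 8.67, and 8.82 CPM in the AxR libraries. Neither gene had overlapping lines. Ephb2 had a log2 fold change of -0.51 with a standard error of 0.078 (edgeR, adjusted p = 3.83e-05). Ephb3 had one of 0.62 with a standard error of 0.120 (edgeR, adjusted p = 0.000351).

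With a log2 change of 1 or more in either direction required as well, Ephb6 was the 1 receptor higher and Epha4 the 1 lower, where 7.99% and 4.72% of all genes tested passed in these directions. The 7 receptors called at an adjusted p under 0.05 kept their call and direction under the other alternatives tried for single genes, these being other normalizations, tools and filters, a replicate block, and each library left out.

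The classes were then compared as sums of TPM over their members. Class A summed to 436, 482, and 425 TPM in the P libraries and to 297, 330, and 381 TPM in the AxR libraries. The AxR libraries were all lower, with a log2 ratio of the means of -0.41. Class B summed to 72.2, 69.9, and 63.4 TPM in the P libraries and to 71.7, 72.1, and 70.2 TPM in the AxR libraries. These ranges overlapped, and the log2 ratio of 0.058 was smaller than its error from the spread between replicates (0.0708). Total Eph transcripts were 516 ± 32.6 TPM in P and 407 ± 41.6 TPM in AxR cells (SD, n = 3 each). The difference, AxR minus P, was -109 TPM, beside -138 TPM for Epha2 alone. TPM depends on the other transcripts in a library, and the most counted gene, CT010467.1, took 2.52% to 4.75% of the counts and 3.38% to 6.14% of the TPM. With levels per length scaled by the upper quartile factors instead, the log2 ratio was -0.36 for class A and 0.12 for class B. For class B this is larger than the 0.058 found with TPM, and no error from the replicates was computed for this scaling. Since these sums were taken over genes chosen with earlier results known, no test was made of them.

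Class B held 14.2%, 12.7%, and 13.0% of Eph transcripts in the P libraries and 19.5%, 17.95%, and 15.6% in the AxR libraries. Its share was higher in each AxR library, and AxR replicate 3 was the nearest to P. The difference in the class A share, AxR minus P, was -4.37 percentage points. Leaving out single libraries gave -5.42 to -3.46, and the value was -4.03 with the length of the longest protein-coding transcript and -3.95 with CPM in place of TPM.

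Within class A the members moved apart. The difference of the class A sum, AxR minus P, was -112 TPM, made up of -138 TPM for Epha2, -2.93 TPM for Epha4, -2.11 TPM for Epha8, and 30.8 TPM for Epha1. Epha2 made up 89.1% ± 0.345 of class A in P cells and 77.7% ± 1.09 in AxR cells, and Epha1 made up 8.74% ± 0.159 and 20.9% ± 1.01 (SD, n = 3 each). Epha1 alone was therefore 7.58% ± 0.206 of all Eph transcripts in P cells and 17.2% ± 0.421 in AxR cells (SD, n = 3 each). Without Epha2, the class A sum was higher in AxR cells, at 74.7 ± 5.78 TPM against 48.9 ± 4.52 TPM (SD, n = 3 each), and the class A share of Eph transcripts then differed by 9.47 percentage points in the opposite direction. The direction of the class A sum thus rested on Epha2. Without it, most of the sum was Epha1, with 39.1 TPM in P and 70.0 TPM in AxR cells, while Epha4 and Epha8 fell. By gene, 3 of the 4 class A receptors tested were lower.

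Within class B, Ephb4 was 67.2% ± 0.467 of the class in P and 65.8% ± 1.18 in AxR cells. Ephb6 made up 7.29% ± 0.280 in P and 14.5% ± 0.793 in AxR cells, while Ephb2 made up 21.3% ± 0.677 in P and 13.8% ± 1.64 in AxR cells (SD, n = 3 each). The rise of Ephb6 by 5.39 TPM and the fall of Ephb2 by 4.79 TPM were of nearly the same size, and the TPM sum of the class was close to level.

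**Figure D2:**
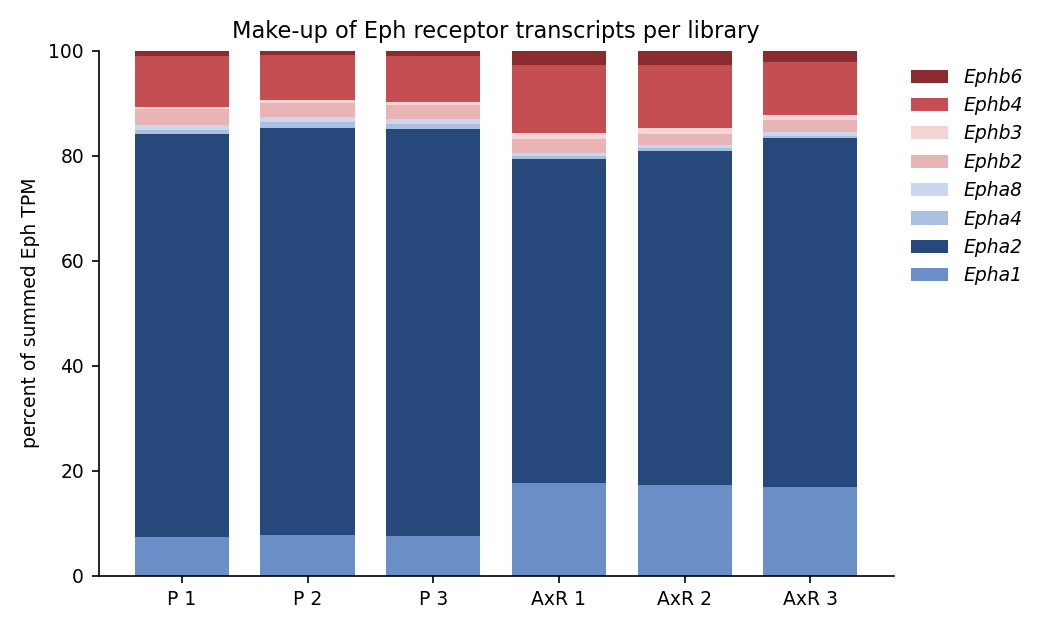
Percent of the summed Eph receptor TPM held by each receptor (y axis) in each library (x axis), class A in blue and class B in red. Epha2 takes 76.7% to 77.5% in P and 61.7% to 66.5% in AxR libraries, and Epha1 7.36% to 7.78% and 16.8% to 17.6%.

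The ligands were read from the same fit. All 8 ephrin genes were tested, of which 2 (25.0%) were higher and 4 (50%) lower in AxR cells, beside 32.8% and 30.8% of all genes tested. The transmembrane ephrin-B ligands Efnb2 and Efnb1 fell, Efnb2 from 338 ± 13.9 to 163 ± 4.84 CPM and Efnb1 from 24.0 ± 2.49 to 12.2 ± 0.878 CPM (SD, n = 3 each). Their log2 fold changes were -1.05 and -0.97 (adjusted p = 1.25e-10 and 3.94e-07 from edgeR), and for both the lines did not overlap. Efnb3 was rare, below 1 CPM in every library, and was not called (log2 fold change -0.16, 95% confidence interval from -0.99 to 0.66). Ephrin-B transcripts summed to 189 ± 6.78 TPM in P and 88.5 ± 5.36 TPM in AxR cells (SD, n = 3 each), whereas the sum of their class B receptors overlapped between the lines.
Of the ephrin-A ligands, Efna1 and Efna5 rose, from 50.02 ± 0.734 to 62.9 ± 5.10 CPM and from 69.6 ± 2.18 to 82.8 ± 3.78 CPM (SD, n = 3 each). These are log2 fold changes of 0.33 and 0.25 (adjusted p = 0.000416 and 0.00113 from edgeR). Efna4 and Efna2 fell, with log2 fold changes of -0.41 and -1.04 (adjusted p = 0.00468 and 0.0146 from edgeR), Efna2 having at most 28 counts in a library. Efna3 was not called (log2 fold change -0.68, adjusted p = 0.0623 from edgeR). Ephrin-A transcripts summed to 170 to 179 TPM in P and 176 to 205 TPM in AxR libraries, with overlap.

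**Figure D3:**
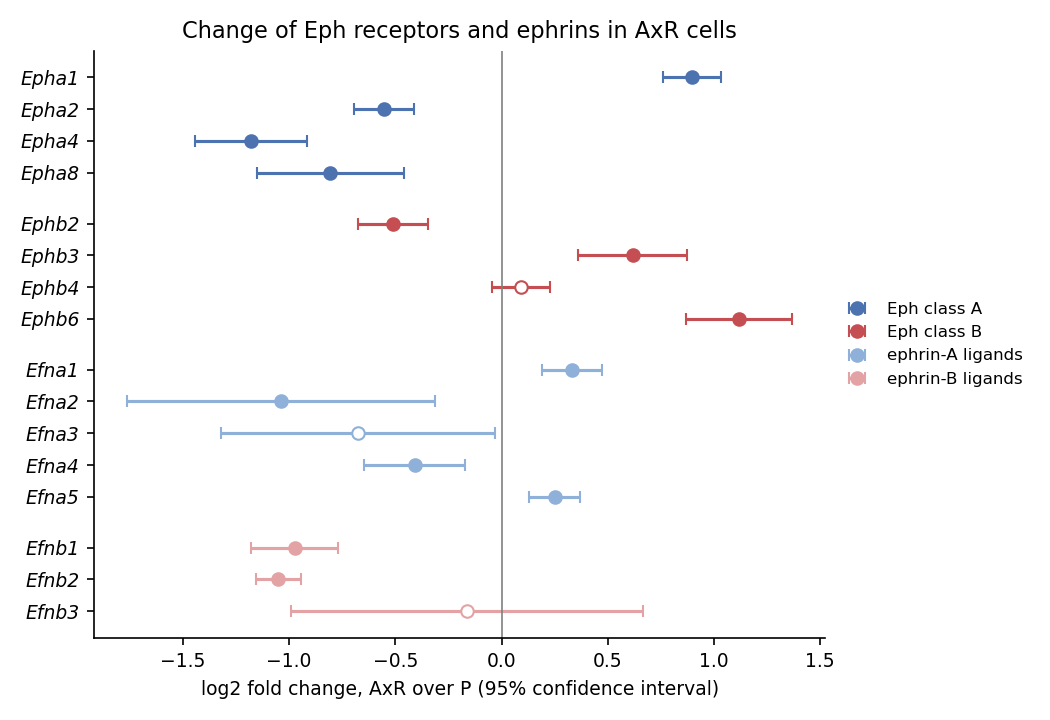
Log2 fold change, AxR over P (x axis), with its 95% confidence interval from edgeR, for the 8 Eph receptors and 8 ephrins tested. Filled points have an adjusted p under 0.05, and open points (Ephb4, Efna3, and Efnb3) do not.

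Genes that act with Eph receptors inside the cell or on their turnover were taken from lists of 58 genes, of which 52 were tested, 18 were higher and 21 lower in AxR cells. These are 34.6% and 40.4% of those tested, beside 32.8% and 30.8% of all genes, and their median log2 fold change was -0.077. Of 6 kinases that relay or modify Eph signals, 4 (66.7%) were lower and 1 (16.7%) higher. Src, the Src family kinase, had 193, 204, and 190 CPM in the P libraries and 88.4, 98.5, and 100.3 CPM in the AxR libraries, while its relative Fyn had 44.6, 48.1, and 45.6 CPM in P and 78.8, 76.8, and 91.4 CPM in AxR libraries. The 2 kinases moved in opposite directions, with log2 fold changes of -1.03 and 0.84 (adjusted p = 8.82e-10 and 6.86e-08 from edgeR). Yes1 was also lower, by a log2 fold change of -0.43 (adjusted p = 0.000121 from edgeR), and Abl2 and Ptk2 were the other 2 lower.

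Of the 18 regulators of small GTPases, 17 were tested, 5 (29.4%) being higher and 7 (41.2%) lower, beside the same 32.8% and 30.8% of all genes. Arhgef16, an exchange factor that binds EphA2, had the highest log2 fold change of the pathway genes called, rising from 2.57 ± 0.514 to 12.7 ± 0.893 CPM (SD, n = 3 each, log2 fold change 2.30, adjusted p = 3.47e-09 from edgeR). The lowest fold changes were in Chn2 and Kalrn, each rare in P cells. Chn2, which encodes a Rac-inactivating chimaerin, had 25, 40, and 35 counts in P and 0 in each AxR library. It was thus at least 10.4-fold lower at the highest floor of 3 counts per library. Its AxR over P ratio was 0, with a 95% exact interval reaching up to 0.0377 (counting error only). Kalrn, an exchange factor used downstream of EphB receptors, had 40, 32, and 31 counts in P and 2, 2, and 1 in AxR libraries, an AxR over P ratio of 0.0487 (95% exact interval 0.0155 to 0.117, counting error only). Tiam1, a Rac exchange factor, had a log2 fold change of -1.23 (adjusted p = 5.97e-10 from edgeR).

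Of 16 adaptors, 12 were tested, 6 (50%) being higher and 4 (33.3%) lower. Of 8 phosphatases, 7 were tested, 2 (28.6%) being higher and 3 (42.9%) lower. All 10 genes of shedding and turnover were tested, 4 (40%) being higher and 3 (30%) lower. The shares of all genes tested were 32.8% and 30.8%, and nothing particular to these lists is read from their counts. Mmp14, a membrane protease known to cut EphA2, had 139 ± 9.08 CPM in P and 256 ± 15.4 CPM in AxR cells (SD, n = 3 each), with a log2 fold change of 0.88 (adjusted p = 6.45e-09 from edgeR). The ubiquitin ligases Cbl and Cblb, which mark receptors for degradation, had log2 fold changes of -0.71 and 0.69 (adjusted p = 3.90e-09 and 3.64e-07 from edgeR), again in opposite directions.

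Beside the other receptor tyrosine kinases, the Eph receptors were a sizeable part. Over the receptor tyrosine kinase genes listed, Eph receptors held 24.6% ± 0.995 of the TPM in P and 22.9% ± 1.18 in AxR cells (SD, n = 3 each), and the libraries overlapped. Of 44 other receptor tyrosine kinases 21 were tested, 4 (19.1%) being higher and 7 (33.3%) lower, beside 32.8% and 30.8% of all genes tested. The 5 with the highest mean over all 6 libraries were Axl (742 TPM in P and 507 TPM in AxR cells), Ddr2 (154 and 197 TPM), Met (144 and 118 TPM), Ryk (150 and 90.3 TPM) and Fgfr2 (27.8 and 132 TPM), the last being rank 12 in P and rank 4 in AxR cells. Epha1 moved from rank 11 to rank 7 among the 58 kinases, and Ephb4 from rank 9 to rank 10. These ranks are of means, and some lay within the replicate spread. In P cells Epha1 (39.1 ± 3.27 TPM) was close to Igf1r (39.6 ± 1.76 TPM). Ephb4 (46.0 ± 3.03 TPM) was close to Ptk7 there (47.9 ± 1.52 TPM; SD, n = 3 each).

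The position of each receptor was compared with the genes around it, since the medians of their chromosomes were not all near 0. The median log2 fold change was 0.094 over the 864 tested genes of chromosome 4, 0.0081 over the 659 of chromosome 6, -0.32 over the 397 of chromosome 16, -0.29 over the 811 of chromosome 1, and -0.16 over the 903 of chromosome 5. Epha2, Epha8, and Ephb2 fell on a chromosome with a median above 0, and Ephb3 rose on one with a median below 0. The fall of Epha4 was in the direction of the median of its chromosome and larger.
Among the 10 tested genes on each side of Epha2, 11 were higher and 1 lower in AxR cells, with a median of 0.20. This count and those of the other receptors below are out of 20 neighbours. They stand beside 32.8% higher and 30.8% lower of all genes tested, and were not tested against these shares. Around Epha8 10 were higher and 4 lower, and around Ephb2 11 were higher and 4 lower, these windows including each other's receptor. Epha8 and Ephb2 are next to each other, 93.4 kb apart with no tested gene between them, and both fell. The next genes outward went in different directions, Zbtb40 beyond Epha8 with a log2 fold change of -0.48 (adjusted p = 8.39e-05 from edgeR) and Kdm1a beyond Ephb2 with 0.30 (adjusted p = 0.000107 from edgeR).
The risers Epha1 and Ephb6 on chromosome 6 had neighbours with medians below 0. Around Epha1 5 were higher and 9 lower, with a median of -0.072, and around Ephb6 4 were higher and 11 lower, with a median of -0.21. Each of these windows included the other receptor among its higher genes. Of the 3 tested genes between them, none was higher and 2 were lower. The next tested gene beyond Epha1, Tcaf1, had a log2 fold change of -1.04 (adjusted p = 6.78e-09 from edgeR), and those on either side of Ephb6, Mgam and Casp2, had -0.72 and -0.16 (adjusted p = 0.0231 and 0.0441 from edgeR).
Around Ephb3 3 were higher and 13 lower, with a median of -0.34, and its nearest tested genes Rps10-ps2 and Vps8 had log2 fold changes of -0.18 and 0.11. Around Epha4 7 were higher and 5 lower, with a median of 0.057, and its nearest tested genes Slc4a3 and Farsb had -0.060 and -0.29. The nearest tested genes of Epha2, Gm13056 and Fam131c, had -0.33 and -0.84 and were not called (adjusted p = 0.055 and 0.0516 from edgeR). Zan, whose gene overlaps the end of Ephb4 on the opposite strand, was called higher (log2 fold change 2.95) with at most 24 counts in a library.

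**Figure D4:**
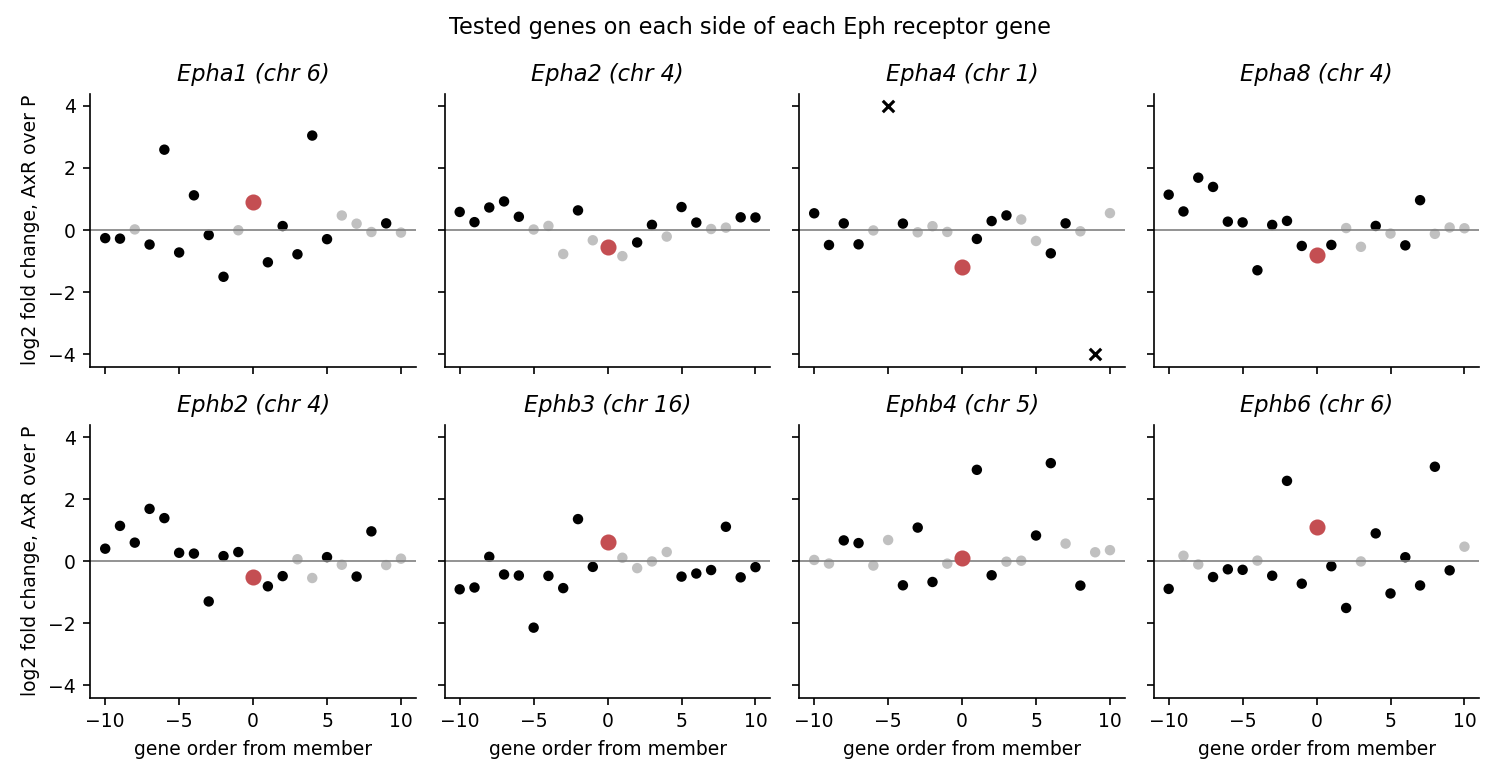
Log2 fold change, AxR over P (y axis), of the 10 tested genes on each side of each tested Eph receptor in gene order (x axis), the receptor in red at 0, neighbours called at an adjusted p under 0.05 in black and others in grey. Crosses mark 2 neighbours of Epha4 beyond the axis, at 5.81 and -10.5, and the 3 receptors that rose sit above medians of their neighbours that were below 0.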

How the data were processed

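RNA was sequenced from 3 P and 3 AxR libraries of 4T1 cells, made with a stranded poly(A) kit. Per the labels and the methods, the authors checked reads with FastQC 0.11.5, aligned them to GRCm38 (GENCODE M16) with STAR 2.6.0a and deposited RSEM 1.3.1 estimated counts per gene, not filtered or normalized. RSEM splits reads that match several genes, and whether its strand setting was used is not given in the sources used here. Between 10.3% and 10.7% of the deposited estimated counts were not whole, and they were rounded here. These shares are over all 53465 genes, including those with a count of 0, and were not computed for the genes tested. After filterByExpr and upper quartile scaling, as the study scaled its values, lines were compared with edgeR 4.0.16 (R 4.3.3, quasi-likelihood F test, robust, line as the only term), with Benjamini-Hochberg adjustment over 13550 genes and a threshold of 0.05.

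CPM is the count scaled to the normalized library size. TPM was computed here from counts per union of exon lengths of GENCODE M21 (GRCm38), which held 53360 of the 53465 identifiers. A floor of 3 counts was used for genes without counts. Samples were grouped by their titles. The Eph members and all gene lists were chosen with earlier results of these data known, so no list was tested. Named genes were the receptors, the ephrins, the 4 pathway genes highest and the 4 lowest in log2 fold change among those called, Src, Fyn, and Yes1, the 5 most abundant other receptor tyrosine kinases, the nearest tested gene on each side of a called receptor, and the leading markers. Abl2, Ptk2, Cbl, Krt8, the epithelial markers that were lower and the markers at 0 were named after their values were seen. Alternatives were TMM, library size only, DESeq2 1.42.0, limma-voom 3.58.1, no low-count filter, at least 10 counts in every library, a replicate block, leaving out each library, and a fold threshold. For the class sums they were other gene lengths, other members and another scaling. The test was tried on simulated data first.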

Additional observations from a re-analysis of the deposited data

How the results depend on the processing

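Alternatives left the 7 Eph receptor calls and their directions as they were, apart from the fold threshold. Adding a log2 fold change of at least 1 left 1083 genes higher and 640 lower, which is 7.99% and 4.72% of the 13550 tested. Of the 8 Eph receptors tested it left 1 higher and 1 lower, and of the 52 pathway genes tested 1 higher and 4 lower. Of the 21 other receptor tyrosine kinases tested it left 1 higher and 2 lower. These counts are lower by construction. With single libraries left out, 4124 to 4499 genes were higher and 3782 to 4112 lower, 3 to 4 Eph receptors higher and 4 lower, 14 to 18 pathway genes higher and 20 to 23 lower, and 3 to 4 other receptor tyrosine kinases higher and 7 to 8 lower. The fourth receptor called higher was Ephb4, without AxR replicate 3. The log2 ratio of the summed class A level was then -0.52 to -0.33 and that of class B 0.0054 to 0.098. With CPM in place of TPM the class B ratio turned to -0.028, within the replicate spread. CPM gives more weight to Ephb2, the receptor with the longest exon sequence. Without Epha2, the class A share differed by 9.47 percentage points and the class A ratio was 0.61, both reversed. Same-numbered libraries did not deviate together in expression (correlations -0.021, -0.0061 and -0.022). These values cannot show whether the libraries were prepared in pairs, which no source used here says. With a replicate block 4304 genes were higher and 4023 lower, and the Eph receptor counts stayed at 3 and 4. The rarest receptors, such as Epha8 with 51 to 134 counts, have the largest standard errors.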
